A study of Mus musculus with 6 samples.

Results

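The 48 genes described here carry a cell through mitosis: the kinases and cyclins of mitotic entry, the chromosomal passenger complex, the kinetochore and its checkpoint, the mitotic kinesins, and the proteins of the spindle, anaphase and cytokinesis. They were taken by a fixed list of Ensembl identifiers, and all 48 had a row among the 62492 genes of the deposited table. The list pairs each identifier with its symbol. The rule uses no measured value, but the members were chosen with earlier results of these data known. The cells were A375, an established human melanoma line. Every group was transduced with lentivirus for Cas9 and a guide RNA and kept under puromycin (10 µg/mL), and RNA was taken 7 days after selection. The 3 groups of 2 libraries each received control guides (against LacZ or Luciferase, genotype given as wild type), guides against ABCE1, or guides against YAE1. Whether both libraries of a group share a guide or a culture, and whether they hold clones or mixed populations, is not in the labels. The p-values therefore rest on the spread of library pairs, and that spread may be technical. ABCE1, the ATPase that splits ribosomes after termination, and YAE1, an adaptor in the delivery of its iron-sulfur cluster, were not analysed here themselves, so the effect of the guides on their targets is not shown. Melanocyte marker genes were not analysed here either.

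Most mitotic genes are transcribed in a wave that peaks in G2 and mitosis, under the transcription factor FOXM1 and the MuvB complex, and their RNA is low in resting and G1 cells. CDK1 with cyclin B starts mitosis, Aurora and Polo-like kinases build the spindle, and kinetochores attach the chromosomes to it. The spindle checkpoint then holds the anaphase-promoting complex until attachment is complete, after which the cohesin ring is cut and the cell divides. In bulk RNA of a growing line the level of these genes is read together as a sign of proliferation. Fewer cells in G2 and mitosis and less of these RNAs in each such cell cannot be told apart in bulk libraries.

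All 46 mitotic genes that could be tested fell with ABCE1 guides, and the same 46 fell with YAE1 guides (limma on log2(FPKM + 1), Benjamini-Hochberg adjusted p under 0.05 over 12578 genes). Of all genes tested, 20.4% were called lower with ABCE1 guides and 17.6% with YAE1 guides. FPKM counts fragments scaled by gene length and by the total fragments of a library. The 48 genes together summed to 2002 and 1984 FPKM in the control libraries, to 705 and 699 with ABCE1 guides, and to 759 and 774 with YAE1 guides. This was 0.791% and 0.782% of the summed FPKM of the control libraries, 0.28% and 0.278% with ABCE1 guides, and 0.285% and 0.298% with YAE1 guides. A median tested gene stood at 34.9% of its control mean with ABCE1 guides (range 20.1% to 67.9%) and at 39.4% with YAE1 guides (range 12.4% to 66.2%). The median log2 difference was -1.44 for ABCE1 and -1.29 for YAE1, beside 0.1 for all genes tested in both comparisons. Among the 46, adjusted p (limma) was at most 0.0045 (ABCE1) and 0.0018 (YAE1).

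Each control library lay above each knockout library for all 48 genes. Of all genes tested, 30.9% had both ABCE1 libraries below both controls, and 27.9% had both YAE1 libraries below both controls. Called and at least 2-fold lower on the log2(FPKM + 1) scale were 41 of the 46 with ABCE1 guides and 42 with YAE1 guides, beside 1.64% and 1.49% of all genes tested. The 46 genes made up 0.366% of the genes tested. They held 36 of the 100 places with the lowest log2 difference with ABCE1 guides and 28 with YAE1 guides, and 26 and 17 with a pseudocount of 0.1. Both knockouts were compared with the same control libraries, so their values are set side by side and their likeness was not tested. These levels are relative to each library's total, and RNA per cell was not measured.

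**Figure D1:**
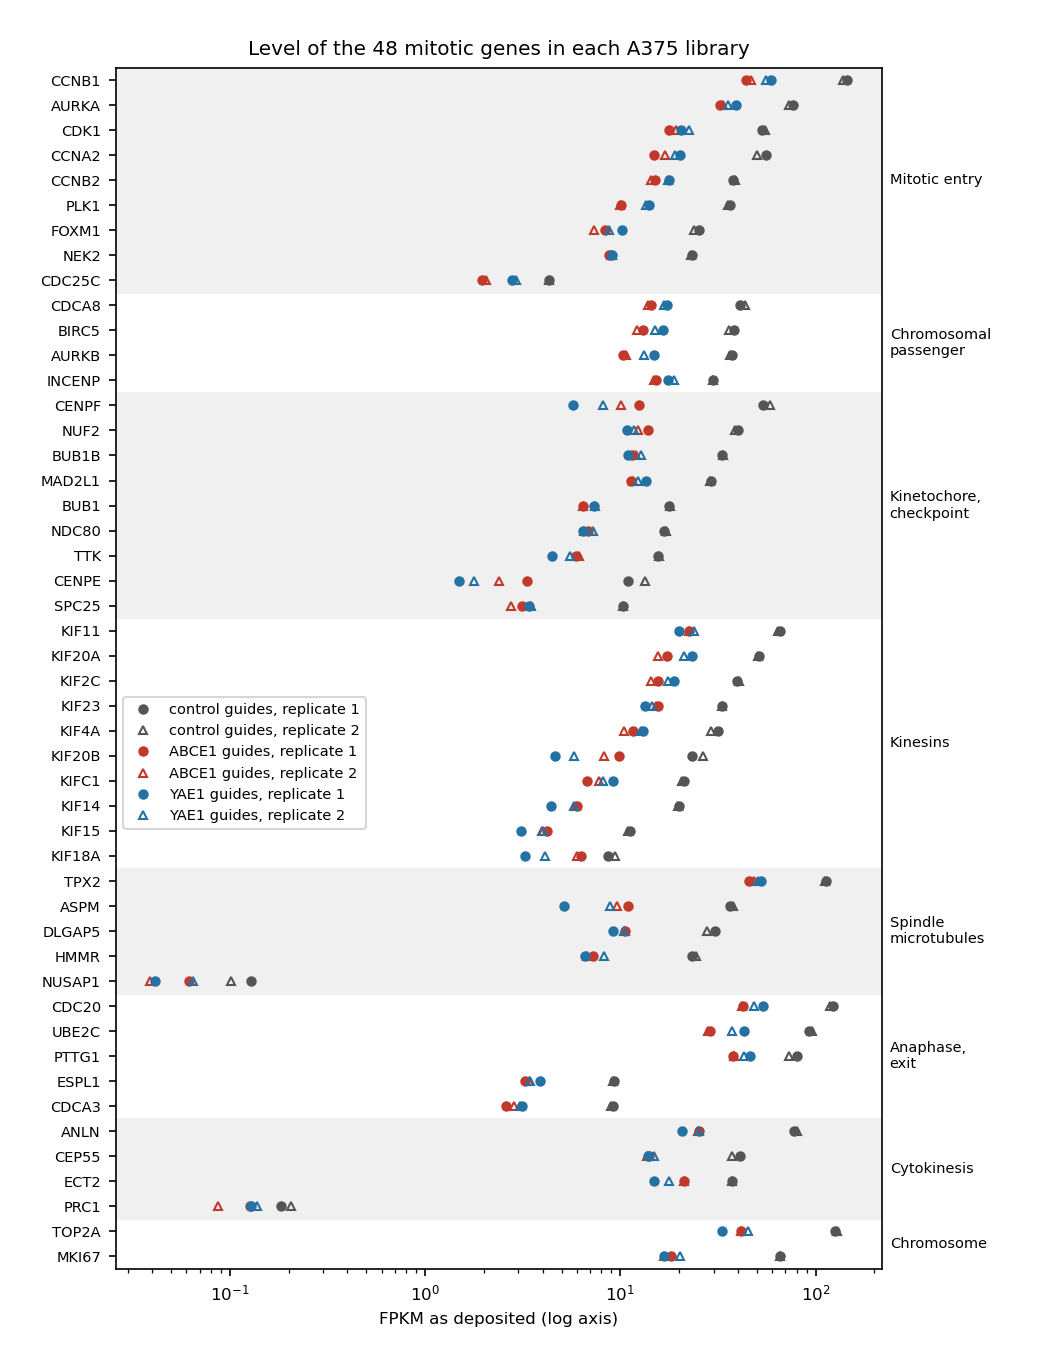
Deposited FPKM (log axis) of each of the 48 mitotic genes in the 6 A375 libraries, grouped by role, with circles for replicate 1 and triangles for replicate 2. Grey control points lie to the right of the red ABCE1 and blue YAE1 points in every row, including NUSAP1 and PRC1, which were listed at no more than 0.206 FPKM in any library.

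**Figure D2:**
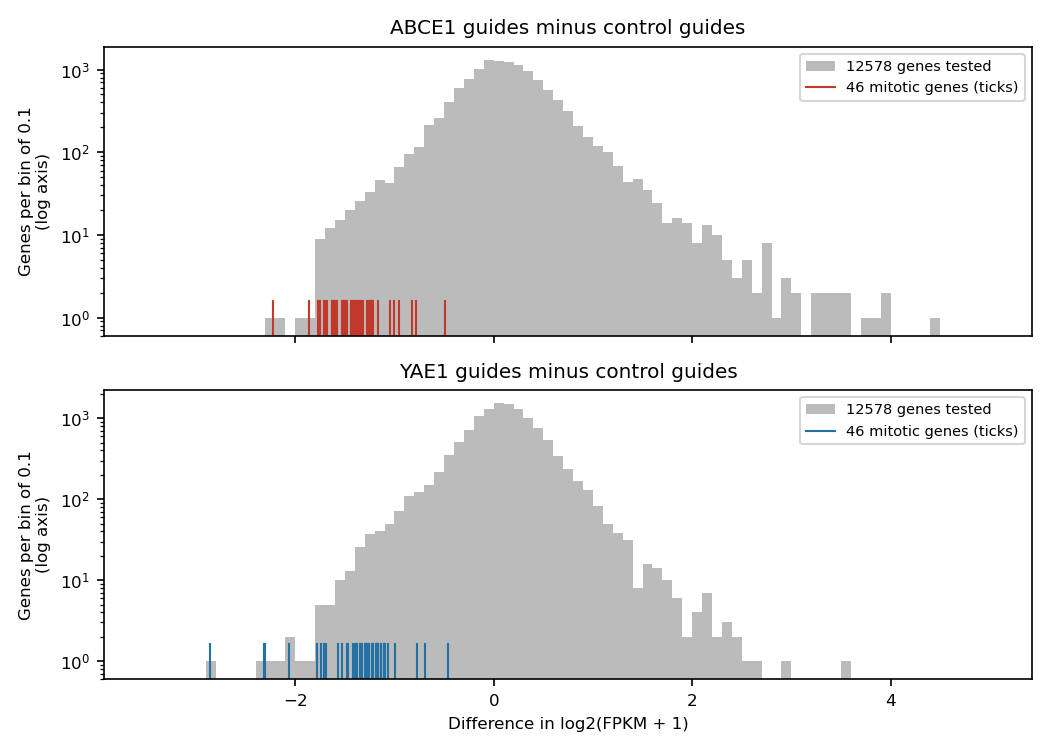
Histograms of the difference in log2(FPKM + 1) for the 12578 genes tested (grey, log count axis, bins of 0.1), with ticks for the 46 mitotic genes. The ticks run from -2.22 to -0.49 with ABCE1 guides and from -2.86 to -0.46 with YAE1 guides, all on the negative side.

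All 6 libraries were of like size, with 15713011 to 18399718 fragments worked out from the FPKM values. Fragment numbers here rest on an assumed step of 0.5 fragments, which the FPKM values do not fix. The tested mitotic gene with the fewest fragments in a library (SPC25) had 89, a counting error of 10.6%, and no tested member was below 1.49 FPKM in any library, so none passed the filter of a mean of 1 FPKM through the controls alone. NUSAP1, a microtubule bundling protein, and PRC1, which crosslinks antiparallel microtubules in the central spindle, were left out by that filter. NUSAP1 was listed at 0.128 and 0.102 FPKM in the controls, 0.0617 and 0.0392 with ABCE1 guides and 0.0412 and 0.065 with YAE1 guides, on 2.5 to 8.5 fragments per library. PRC1 was listed at 0.182 and 0.206 in the controls, 0.127 and 0.087 with ABCE1 guides and 0.129 and 0.138 with YAE1 guides, on 8.5 to 20 fragments. Neither passed the test against controls in a fit without the filter (limma, adjusted p = 0.16 to 0.44). These rows stood far below every other member in the controls, the next being CDC25C at 4.3 FPKM. The rule for reads that fall on overlapping gene models is not given in the sources used here, so these rows are uncertain.

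The 9 genes of mitotic entry all fell in both knockouts, with a median log2 difference of -1.5 for ABCE1 guides and -1.28 for YAE1 guides. PLK1 (ENSG00000166851), the Polo-like kinase of centrosome maturation and spindle assembly, was at 36.6 and 35.7 FPKM in the controls, 10.1 and 10.0 with ABCE1 guides, and 14.0 and 13.6 with YAE1 guides. The 3 groups did not overlap, and ABCE1 libraries were lowest. PLK1 fell to 27.8% of control with ABCE1 guides (a log2 difference of -1.75 ± 0.05, SE, limma adjusted p = 7.4e-06) and to 38.1% with YAE1 guides (-1.33 ± 0.05, limma adjusted p = 2.4e-05). CCNA2, the cyclin A of S phase and G2, was at 56.0 and 50.2 FPKM in the controls, 14.8 and 17 with ABCE1 guides, and 20.2 and 19.0 with YAE1 guides. It fell to 30.0% with ABCE1 guides (-1.68 ± 0.08, limma adjusted p = 2.3e-05) and to 37.0% with YAE1 guides (-1.39 ± 0.08, limma adjusted p = 6.5e-05).

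CDK1, the kinase that drives mitosis, fell from 54.1 ± 1.44 FPKM (SD, n = 2, as for all means here) to 18.5 ± 0.951 with ABCE1 guides and 21.5 ± 1.48 with YAE1 guides. Its partner cyclins fell alike: CCNB1, the most abundant member, went from 142 ± 4.76 to 45.3 ± 2.12 and 57.5 ± 2.39 FPKM. CCNB2 went from 38.1 ± 0.618 to 14.7 ± 0.446 and 17.6 ± 0.26 FPKM. FOXM1, the activator of the G2 and mitosis programme, was itself among the genes that fell, from 24.5 ± 1.11 to 7.8 ± 0.7 and 9.48 ± 0.986 FPKM. NEK2, a centrosome-splitting kinase, stood at 38.6% (ABCE1) and 39.1% (YAE1) of its control level. AURKA, the centrosomal Aurora kinase, stood at 43.7% and 49.7%. The smallest change of the group was in CDC25C, a phosphatase that activates CDK1. CDC25C was at 4.31 and 4.3 FPKM in the controls, 1.96 and 2.05 with ABCE1 guides, and 2.79 and 2.91 with YAE1 guides. It fell to 46.6% with ABCE1 guides (a log2 difference of -0.82 ± 0.07, limma adjusted p = 0.00013) and to 66.2% with YAE1 guides (-0.46 ± 0.07, limma adjusted p = 0.0018). At this low level the log2(FPKM + 1) scale understates the change.

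RNA of all 4 subunits was lower in both knockouts for the chromosomal passenger complex, which corrects faulty attachments and later moves to the midzone. AURKB (ENSG00000178999), its kinase, was at 37.1 and 36.4 FPKM in the controls, 10.3 and 10.7 with ABCE1 guides, and 14.8 and 13.2 with YAE1 guides. The groups were separate, with ABCE1 guides lowest, at 28.6% of control (log2 difference -1.71 ± 0.06, limma adjusted p = 1.1e-05) against 38.0% with YAE1 guides (-1.34 ± 0.06, limma adjusted p = 3.9e-05). CDCA8 (borealin), which targets the complex to centromeres, was at 41.1 and 43.3 FPKM in the controls, 14.3 and 13.8 with ABCE1 guides, and 17.4 and 16.8 with YAE1 guides. It fell to 33.3% (-1.52 ± 0.05) and 40.5% (-1.26 ± 0.05). BIRC5 (survivin) fell from 36.9 ± 1.44 to 12.6 ± 0.641 and 15.8 ± 1.05 FPKM. INCENP, the scaffold, fell least. Its libraries were at 29.8 and 29.9 FPKM in the controls, 15.2 and 14.9 with ABCE1 guides, and 17.5 and 18.8 with YAE1 guides, which is 50.3% and 60.9% of control (log2 differences -0.95 ± 0.05 and -0.69 ± 0.05, limma adjusted p = 2.8e-05 and 0.00012).

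Kinetochore and checkpoint genes held the member that fell furthest in both knockouts. CENPF (ENSG00000117724), a large coiled-coil protein that binds kinetochores and microtubules, was at 53.7 and 58.4 FPKM in the controls, 12.4 and 10.1 with ABCE1 guides, and 5.71 and 8.15 with YAE1 guides. Both knockouts were far below the controls, and the YAE1 libraries lay below the ABCE1 libraries. CENPF fell 4.98-fold with ABCE1 guides (a log2 difference of -2.22 ± 0.15, limma adjusted p = 6.7e-05) and 8.09-fold with YAE1 guides (-2.86 ± 0.15, limma adjusted p = 5.3e-05). In each comparison it ranked 1 of the 12578 genes tested when ordered from the lowest log2 difference, and 7 with a pseudocount of 0.1. CENPE (ENSG00000138778), the kinesin that carries chromosomes to the spindle equator, was at 10.9 and 13.4 FPKM in the controls, 3.33 and 2.4 with ABCE1 guides, and 1.49 and 1.79 with YAE1 guides. It fell 4.23-fold with ABCE1 guides (-1.77 ± 0.14, limma adjusted p = 0.00012) and 7.37-fold with YAE1 guides (-2.31 ± 0.14, limma adjusted p = 7.3e-05).

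The other 7 genes of that group lay closer together, at 28.6% to 39.8% of control for ABCE1 guides and 28.8% to 44.5% for YAE1 guides. The member list includes 3 subunits of the NDC80 complex, which holds the microtubule end at the kinetochore. All 3 fell: NDC80 to 39.6% and 40.5%, NUF2 to 33.4% and 28.8%, and SPC25 to 28.6% and 33.4%. The checkpoint kinases did so too. BUB1 went from 17.9 ± 0.124 to 6.43 ± 0.00276 FPKM with ABCE1 guides and 7.38 ± 0.105 with YAE1 guides. BUB1B (BubR1), part of the inhibitor of the anaphase-promoting complex, went from 33.3 ± 0.26 to 11.8 ± 0.382 and 11.8 ± 1.35 FPKM. TTK, the kinase that starts checkpoint signalling, fell from 15.6 ± 0.272 to 6.05 ± 0.137 and 5.01 ± 0.741 FPKM. MAD2L1, the checkpoint protein that captures CDC20, changed least of the 9 with YAE1 guides, while NDC80 (-1.22) and TTK (-1.24) changed slightly less than it with ABCE1 guides. MAD2L1 was at 29.0 and 28.8 FPKM in the controls, 11.4 and 11.6 with ABCE1 guides, and 13.5 and 12.3 with YAE1 guides (log2 differences -1.26 ± 0.06 and -1.11 ± 0.06, limma adjusted p = 1.9e-05 and 4.7e-05).

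**Figure D3:**
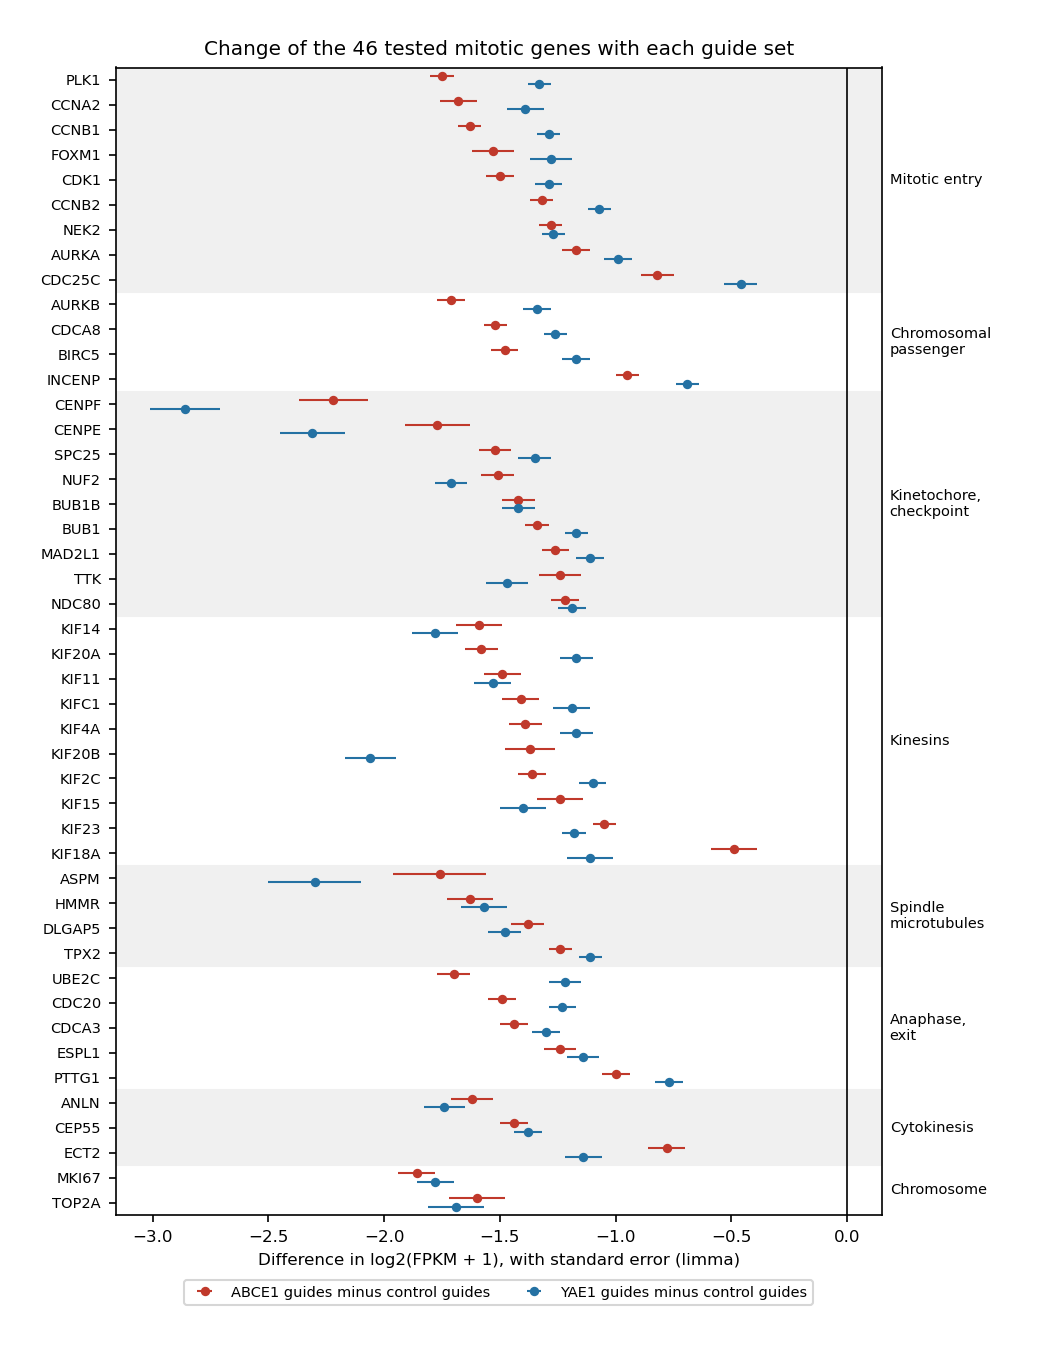
Difference in log2(FPKM + 1) from control guides for the 46 tested mitotic genes, with ABCE1 guides in red and YAE1 guides in blue, grouped by role, with limma standard errors. Every point lies below 0, CENPF is furthest left in both colours (-2.22 and -2.86), and KIF18A with ABCE1 guides (-0.49) and CDC25C with YAE1 guides (-0.46) lie nearest to 0.

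The 10 kinesins, motors that push, pull or trim spindle microtubules, fell with a median log2 difference of -1.38 for ABCE1 guides and -1.19 for YAE1 guides. KIF20B (ENSG00000138182), a plus-end motor of the late spindle and cytokinesis, was at 23.3 and 26.4 FPKM in the controls, 9.79 and 8.29 with ABCE1 guides, and 4.64 and 5.78 with YAE1 guides. The fall was 2.75-fold with ABCE1 guides (a log2 difference of -1.37 ± 0.11, limma adjusted p = 0.00014) and 4.77-fold with YAE1 guides (-2.06 ± 0.11, limma adjusted p = 5.6e-05). KIF14, a cytokinesis motor, was at 19.9 and 19.8 FPKM in the controls, 6.0 and 5.91 with ABCE1 guides, and 4.42 and 5.82 with YAE1 guides. It fell 3.34-fold (-1.59 ± 0.1, limma adjusted p = 5.5e-05) and 3.89-fold (-1.78 ± 0.1, limma adjusted p = 6.2e-05).

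KIF18A (ENSG00000121621), which damps chromosome movement at the metaphase plate, changed least with ABCE1 guides among all 46 genes. It was at 8.66 and 9.43 FPKM in the controls, 6.29 and 6.0 with ABCE1 guides, and 3.26 and 4.1 with YAE1 guides. ABCE1 libraries therefore lay between the controls and the YAE1 libraries, at 67.9% of control (log2 difference -0.49 ± 0.1, limma adjusted p = 0.0045) against 40.7% with YAE1 guides (-1.11 ± 0.1, limma adjusted p = 0.00023). KIF11, the motor that separates the spindle poles, fell from 65.0 ± 1.4 to 22.5 ± 0.00775 and 22.0 ± 2.81 FPKM, and KIF15, which can share that task, from 11 ± 0.162 to 4.1 ± 0.166 and 3.58 ± 0.658 FPKM. KIF23, the motor of the centralspindlin complex, fell to 46.6% and 42.4% of control, and KIF20A, which brings passenger proteins to the midzone, to 32.2% and 43.5%. The microtubule depolymerase KIF2C, the central spindle motor KIF4A and the minus-end motor KIFC1 were at 34.7% to 37.5% with ABCE1 guides and 41.2% to 45.4% with YAE1 guides.

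Of the 5 spindle microtubule proteins, the 4 that were tested fell. ASPM (ENSG00000066279), which focuses spindle poles, was at 36.5 and 37.8 FPKM in the controls, 11 and 9.59 with ABCE1 guides, and 5.12 and 8.84 with YAE1 guides. The YAE1 libraries differed from each other by more than the ABCE1 libraries did, and the standard error was the largest of the 46 genes. ASPM fell 3.6-fold with ABCE1 guides (a log2 difference of -1.76 ± 0.2, limma adjusted p = 0.00046) and 5.32-fold with YAE1 guides (-2.3 ± 0.2, limma adjusted p = 0.00024). HMMR, a spindle assembly factor, was at 23.2 and 24.4 FPKM in the controls, 7.27 and 6.77 with ABCE1 guides, and 6.56 and 8.28 with YAE1 guides (-1.63 ± 0.1 and -1.57 ± 0.1, limma adjusted p = 4.3e-05 and 7.6e-05). DLGAP5 (HURP), which stabilises kinetochore fibres, fell to 36.3% and 33.7% of control. TPX2, the activator of AURKA, changed least of the 4. It was at 113 and 112 FPKM in the controls, 45.6 and 48.6 with ABCE1 guides, and 52.6 and 50.6 with YAE1 guides (-1.24 ± 0.05 and -1.11 ± 0.05, limma adjusted p = 1.2e-05 and 3.8e-05).

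The 5 genes of anaphase and mitotic exit fell in both knockouts, with median log2 differences of -1.44 and -1.22. UBE2C (ENSG00000175063), the ubiquitin-conjugating enzyme of the anaphase-promoting complex, was at 92.6 and 96.2 FPKM in the controls, 28.7 and 28.1 with ABCE1 guides, and 42.8 and 37.3 with YAE1 guides. It fell to 30.1% (-1.7 ± 0.07, limma adjusted p = 1.3e-05) and 42.4% (-1.22 ± 0.07, limma adjusted p = 5.6e-05), with ABCE1 libraries lowest. CDCA3, a substrate of the same complex, was at 9.18 and 8.93 FPKM in the controls, 2.6 and 2.84 with ABCE1 guides, and 3.15 and 3.05 with YAE1 guides (-1.44 ± 0.06 and -1.3 ± 0.06, limma adjusted p = 1.9e-05 and 4.4e-05). CDC20, the activator of the complex, fell from 120 ± 3.84 to 42.1 ± 0.208 and 50.9 ± 3.84 FPKM. ESPL1 (separase), the protease that cuts cohesin, fell from 9.22 ± 0.135 to 3.32 ± 0.0866 and 3.66 ± 0.28 FPKM. Its inhibitor PTTG1 (securin) changed less. PTTG1 was at 80.7 and 72.9 FPKM in the controls, 37.7 and 38.1 with ABCE1 guides, and 46 and 43.2 with YAE1 guides, which is 49.4% and 58.1% of control (-1.0 ± 0.06 and -0.77 ± 0.06, limma adjusted p = 4.2e-05 and 0.00016).

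Among the cytokinesis genes the 3 that were tested fell. ANLN (anillin, ENSG00000011426), a scaffold of the contractile ring, was at 77.7 and 80.2 FPKM in the controls, 25.2 and 24.9 with ABCE1 guides, and 20.8 and 25.4 with YAE1 guides (log2 differences -1.62 ± 0.09 and -1.74 ± 0.09, limma adjusted p = 2.9e-05 and 4.4e-05). CEP55, which recruits the abscission machinery to the midbody, was at 41.0 and 37.3 FPKM in the controls, 14.0 and 13.7 with ABCE1 guides, and 13.9 and 14.9 with YAE1 guides (-1.44 ± 0.06 and -1.38 ± 0.06, limma adjusted p = 1.7e-05 and 3.8e-05). For both genes the knockout groups overlapped each other. ECT2, the exchange factor that activates RhoA at the equator, fell least, and its ABCE1 libraries lay between the other groups. It was at 37.1 and 37.5 FPKM in the controls, 21.2 and 21.3 with ABCE1 guides, and 14.9 and 17.8 with YAE1 guides (-0.78 ± 0.08 and -1.14 ± 0.08, limma adjusted p = 0.00026 and 9.9e-05).

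MKI67 (ENSG00000148773), the antigen used to count proliferating cells, was at 66.0 and 65.5 FPKM in the controls, 18.2 and 16.7 with ABCE1 guides, and 16.8 and 20.1 with YAE1 guides. It fell to 26.5% of control with ABCE1 guides (a log2 difference of -1.86 ± 0.08, limma adjusted p = 1.9e-05) and to 28.0% with YAE1 guides (-1.78 ± 0.08, limma adjusted p = 4.2e-05). TOP2A, the topoisomerase that untangles chromosomes, was at 125 and 129 FPKM in the controls, 41.5 and 41.3 with ABCE1 guides, and 33.2 and 44.9 with YAE1 guides (-1.6 ± 0.12 and -1.69 ± 0.12, limma adjusted p = 1.0e-04 and 0.00012). The knockout groups overlapped each other for both genes.

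YAE1 guides were also compared directly with ABCE1 guides, and 22 of the 46 genes differed: 17 were higher and 5 lower with YAE1 guides (limma, adjusted p under 0.05). Of all genes tested, 15.3% were called higher and 18.7% lower, and 34.0% in either direction. Both YAE1 libraries lay above both ABCE1 libraries for 26 of the 48 and below for 11, beside 33.4% and 36.8% of all genes tested. The median log2 difference of the 46 was 0.13, beside -0.01 for all genes tested, so the typical member had fallen somewhat less with YAE1 guides. The counts moved with single libraries: without ABCE1 replicate 1 they were 9 higher and 2 lower, without ABCE1 replicate 2 they were 7 and 4, without YAE1 replicate 1 they were 11 and 3, and without YAE1 replicate 2 they were 16 and 12. With no filter on low values 9 were higher and 1 lower. Of the 22 calls, 6 held under every one of the 14 alternative settings: UBE2C, PLK1, KIF20A, AURKB and CCNB1, higher with YAE1 guides, and KIF18A, lower.

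The genes higher with YAE1 guides lay mostly in mitotic entry (6 of 9: PLK1, CDC25C, CCNB1, CCNA2, CCNB2 and CDK1), in the passenger complex (4 of 4) and in anaphase (UBE2C, CDC20 and PTTG1, 3 of 5). Of all genes tested, 15.3% were called higher. Apart from PLK1 (4760 bases), the genes just named and those of the passenger complex have gene models shorter than 4000 bases. Whether role or length goes with these calls was not tested. On the log2(FPKM + 1) scale the largest difference was in UBE2C at 0.48 ± 0.07 (limma adjusted p = 0.0046), then PLK1 at 0.42 ± 0.05 (limma adjusted p = 0.0027) and KIF20A at 0.41 ± 0.07 (limma adjusted p = 0.0066). In FPKM these were 1.41, 1.37 and 1.35 times the ABCE1 mean, and CDC25C, a gene of low level, had the highest ratio of the 17 at 1.42 (log2 difference 0.36 ± 0.07). AURKB was higher by 0.38 ± 0.06, BIRC5 by 0.3 ± 0.06, and CDCA8 and INCENP by 0.26 ± 0.05 each (limma adjusted p = 0.0068 to 0.015), so RNA of each subunit of the passenger complex had fallen less with YAE1 guides. The INCENP call was lost without either ABCE1 library, the CDCA8 call without ABCE1 replicate 2, and the BIRC5 call without ABCE1 replicate 2, without YAE1 replicate 1 and with no filter. KIF2C (0.26 ± 0.06), KIF4A (0.22 ± 0.07) and BUB1 (0.17 ± 0.05) completed the 17. CDC25C and CCNB2 each lost the call in 1 setting, without ABCE1 replicate 1 and without ABCE1 replicate 2 respectively. BUB1, CDK1 and KIF4A lost it in 7 to 9 settings, and CDC20, KIF2C, PTTG1 and CCNA2 in 3 to 5.

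The 5 genes lower with YAE1 guides were KIF20B (-0.7 ± 0.11, limma adjusted p = 0.0071), CENPF (-0.64 ± 0.15, limma adjusted p = 0.021), KIF18A (-0.62 ± 0.1, limma adjusted p = 0.0059), CENPE (-0.54 ± 0.14, limma adjusted p = 0.029) and ECT2 (-0.36 ± 0.08, limma adjusted p = 0.016). In FPKM they stood at 0.576, 0.616, 0.599, 0.574 and 0.772 times the ABCE1 mean, and for each the YAE1 libraries lay below both ABCE1 libraries. The call for KIF20B was lost with no filter. The calls for CENPF and CENPE were lost with no filter, without ABCE1 replicate 1 and without YAE1 replicate 1, and that for CENPE also without YAE1 replicate 2. The ECT2 call was lost with no filter and without either ABCE1 library. ASPM had a difference of like size (-0.54 ± 0.2) that did not pass (limma adjusted p = 0.079). For the 24 genes that were not called the differences ran from -0.54 (ASPM) to 0.25 (FOXM1).

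**Figure D4:**
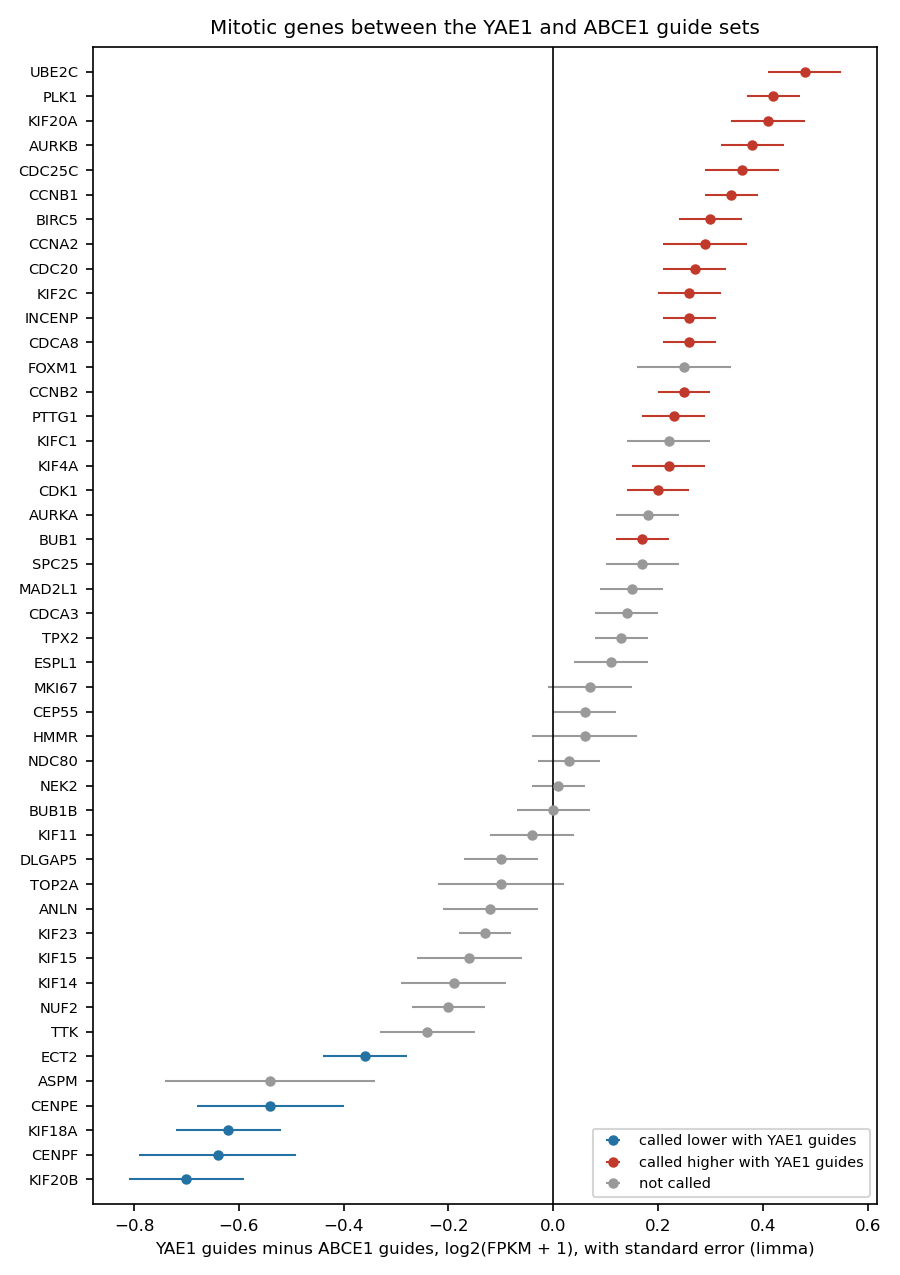
Difference in log2(FPKM + 1) between YAE1 and ABCE1 guides for the 46 tested mitotic genes, ordered by size, with limma standard errors. Red points (17 genes, UBE2C at 0.48 on top) were called higher with YAE1 guides, blue points (5 genes, KIF20B at -0.7 at the bottom) lower, and grey points were not called.

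Gene model length, taken as the smallest whole length that accounts for the FPKM values, moved with this difference among the mitotic genes. Of the 20 members of 2000 to 4000 bases 12 were higher and none was lower with YAE1 guides (median log2 difference 0.25), beside 20.1% higher and 15.9% lower of all genes of that length. Of the 4 shorter members 2 were higher and none was lower, beside 14.4% and 13.5% of all such genes. Of the 12 members of 4000 to 6000 bases 2 were higher and 2 lower (median -0.02), beside 15.7% and 18.8% of all such genes. Of the 10 members of at least 6000 bases 1 was higher and 3 were lower (median -0.16), beside 12.4% and 23.3% of all genes of that length, so the counts of the longest members lay near those of other long genes. The median log2 difference of all genes was 0.03 at 2000 to 4000 bases, 0.0 at 4000 to 6000 and -0.05 at 6000 or more. Across the 46 genes, which share libraries and are not replicates, Pearson's r between log2 length and the YAE1 minus ABCE1 difference was -0.63 (Spearman -0.62). Across all 12578 genes tested it was 0.02 (Spearman -0.09). Among the 46 genes, replicates within each group also differed with length. For YAE1 replicate 1 minus replicate 2, r with log2 length was -0.62 over the 46 genes (Spearman -0.59). Over all genes it was -0.11 (Spearman -0.24). For replicate 1 minus replicate 2 of the controls it was -0.39 over the 46 genes, and for the ABCE1 libraries it was 0.4, of opposite sign. Over all genes these were near 0, at -0.04 for the controls and -0.05 for ABCE1. For the difference from controls r over the 46 genes was -0.24 (ABCE1) and -0.62 (YAE1). Over all genes it was -0.04 and -0.03. MKI67, with the longest gene model of the 46 (12845 bases), was an exception at 0.07, and KIF18A (4517 bases) was among the lowest at -0.62. The part of length in these differences was not tested.

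**Figure D5:**
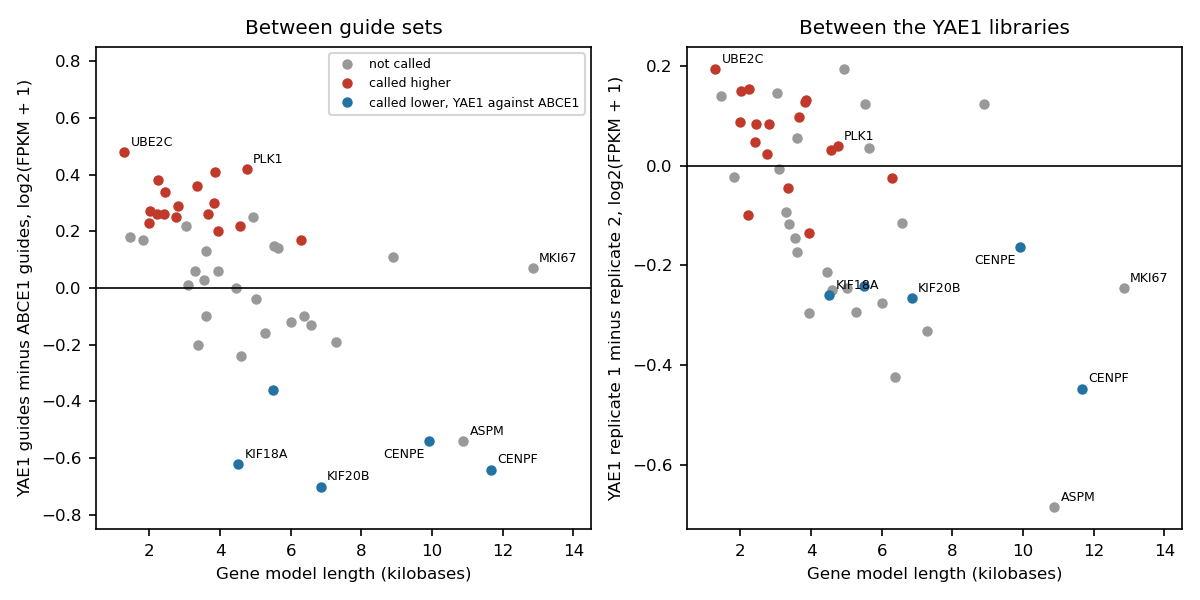
Gene model length in kilobases of the 46 tested mitotic genes against the YAE1 minus ABCE1 difference (left) and against YAE1 replicate 1 minus replicate 2 (right), both in log2(FPKM + 1), coloured by the call between the guide sets. Points slope down in both panels, with the short UBE2C high and the long CENPF and ASPM low in both. Pearson's r, taken against log2 length and not the plotted length, was -0.63 and -0.62.

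Other cell-cycle genes were taken by identifier from the human phase marker pairs of the Bioconductor package scran, leaving out the 48. Of the 48, 22 are in the G2M list, 11 in the G1 list, none in the S list and 15 in no list. CCNB1, CCNB2, CDC20 and AURKB are among the 11 in the G1 list. The lists therefore separate the phases poorly, and their names serve here only as labels. Of all genes tested, 37.5% were called higher with ABCE1 guides and 34.2% with YAE1 guides, against the 20.4% and 17.6% called lower. Among 132 other G2M genes tested, ABCE1 guides lowered 49 and raised 42, with a median log2 difference of 0.0 and 37.1% lower, and YAE1 guides lowered 49 and raised 33, with a median of -0.07 and 37.1% lower. Among 177 S genes, ABCE1 guides lowered 89 and raised 30 (50.3% lower, median -0.21), while YAE1 guides lowered 94 and raised 27 (53.1% lower, median -0.18). Among 187 other G1 genes the counts were 72 lower and 61 higher for ABCE1 (38.5% lower, median -0.03), and 70 lower and 50 higher for YAE1 (37.4% lower, median -0.04). The medians of the tested mitotic genes, -1.44 and -1.29, lay further below 0 than those of all 3 lists. Because the 48 were left out, the list medians do not describe the genes of G2 and mitosis as a whole. The difference between lists was not tested.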

How the data were processed

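RNA-seq libraries of A375 cells (6, strand-specific, 150 bp pairs, 1 µg RNA each) were analysed. The authors deposited 1 table of FPKM values, unpooled, with a column per library. The submitters' processing notes name GRCh37. For the aligner, the counter and the annotation, the name is not given in the sources used here. An organism field reads mouse, while the cells and build are human. The reference tables used here matched 0 identifiers, so only the listed genes are named. Genotype fields of the second knockout libraries name a gene ending in 2, so groups follow the titles.

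Members and lists were chosen with earlier results of these data known. The test was limma (version 3.58.1, R 4.3.3) on log2(FPKM + 1) for the 12578 genes averaging 1 FPKM or more: group means, all 6 libraries, eBayes with trend, Benjamini-Hochberg adjustment, threshold 0.05. An exact permutation test of 2 against 2 cannot go below p = 0.33 and was not used. The fit was tested on simulated data. The most frequent ratio between libraries among low values gave the relative library totals. Whole-number ratios within a gene then gave fragment numbers (for all 38269 genes above 0) and gene model lengths, up to a factor common to a gene. The step of 0.5 fragments was assumed. Members with full values are the 2 with the largest and the 1 with the smallest mean change in each role, and any with an opposite call. Phase markers had to be the higher gene in 90% or more of their pairs for 1 phase, with 10 pairs or more. Alternatives were another pseudocount, filters, scalings, fewer libraries, a replicate block and, chosen after seeing the data, voom on recovered fragments. Symbol-only lists were not used.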

Additional observations from a re-analysis of the deposited data

How the results depend on the processing

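All 46 genes stayed lower in both knockouts under each of the 14 alternatives in which they were tested (2 of them, CDC25C and CDCA3, have means under 5 FPKM, which left 44 with that filter). The largest adjusted p (limma) was 0.032 for ABCE1 and 0.016 for YAE1. The median log2 difference with ABCE1 guides (-1.44) was -1.51 with a pseudocount of 0.1, -1.58 with centring on the median gene, -1.49 with quantile normalization, -1.52 with voom and -1.46 to -1.44 leaving out 1 library. With YAE1 guides (-1.29) it was -1.34 with a pseudocount of 0.1, -1.38 with centring, -1.35 with voom and -1.31 to -1.26 leaving out 1 library. Centring shifted the median of all genes by -0.139 with ABCE1 guides. Between YAE1 and ABCE1 guides, leaving out 1 library gave 7 to 16 members higher and 2 to 12 lower, with medians of 0.12 to 0.16. With no filter 9 were higher and 1 lower, and the median was 0.18 with centring and 0.17 with quantile normalization. Where 1 library was left out, the spread of the other groups stood in for that of its remaining partner. The cause of these shifts was not tested.

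Replicate numbers showed no sign of pairing the libraries: the correlation of within-group differences was -0.053 to -0.009. With 1 difference per group, this cannot exclude that libraries were handled in pairs. With a replicate block 46 members were lower in both knockouts (medians -1.44 and -1.29), and between the knockouts 16 were higher and 5 lower, with a median of 0.13. Counting error was below 10.7% for tested members, on the assumed step of 0.5 fragments. Outlying samples were not looked for, since this takes 4 libraries in a group.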
